A study of Sus scrofa with 43 samples.

Results

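The intestinal glucose transporters SGLT1, encoded by SLC5A1, and GLUT2, encoded by SLC2A2, were followed in the jejunum of piglets from birth to 4 wk after weaning. The members were the array spots whose transcript accession is a pig RefSeq transcript of either gene: 5 spots for SLC5A1 (NM_001164021) and 1 spot for SLC2A2 (NM_001097417), that is 2 of the 35884 accessions on the array. In the Sscrofa11.1 annotation SLC5A1 lies on chromosome 14 from 48566400 to 48704145 and SLC2A2 on chromosome 13 from 109592595 to 109614105. Scrapings of 43 piglets were hybridized to 1 one-color array each. The control arm held offspring of sows on standard feed, with 6 piglets at day 1, 6 at day 7, 3 at weaning, 5 at 4 d postweaning and 3 at 4 wk postweaning. The amoxicillin arm held 4 piglets at each of these 5 ages, born to sows given 15 mg/kg amoxicillin daily by mouth from the week before the expected farrowing until farrowing. Piglets of both arms suckled sows on the same lactation feed and were not given the antibiotic themselves. Sampled piglets were males, taken by the study's methods as 1 from each sow at an age, and which piglets of different ages shared a sow is not given in the sources used here. Control day 1 held samples labelled 19 and 19B, whose relation is not given either. Their arrays correlated with r = 0.980 over the gene spots, the lowest of any pair in that group, and both were counted.

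SGLT1 sits in the brush border of the enterocyte and carries glucose and galactose into the cell together with sodium. GLUT2 lets these sugars, and fructose, leave through the basolateral membrane, and the sodium pump keeps the sodium gradient that drives SGLT1. In a suckling piglet the sugar comes mainly from lactose in milk, and after weaning mainly from starch, which is digested to glucose. The question put to the data was how the transcripts of both transporters ran over this change of diet, and whether the arms differed. Levels are log2 normalized intensities, which compare arrays for 1 gene and not 1 gene with another. In tissue scrapings, fewer absorptive cells and less transcript per cell cannot be told apart.

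All spots of both genes were well above background on 43 of 43 arrays. The arrays lay on 6 slides, 3 for each arm, so that slide and treatment cannot be told apart, and within an arm the slides followed age. Of 13 enterocyte markers, 8 had a probe, and their summed level was between 18.38 and 18.84 on every array except that of amoxicillin piglet 8 at weaning, where it was 17.32. Of these 8 markers, 7 had saturated spots, 6 of them on at least 22 arrays, so that the narrow range of the sum is set in part by the scanner's ceiling and is no measure of enterocyte content. That array and control piglet 7 at weaning stood apart from the rest in B and plasma cell markers, of which 3 of 6 had a probe, with sums of 15.37 and 14.90 against at most 11.34 elsewhere. They also had the highest sums of crypt proliferation markers (3 of 7 with a probe), 15.06 and 14.58. FABP6, the bile acid binding protein of the ileum, was above 15 on 6 arrays, which were 1 array in each arm at each of the 3 later ages and included these 2. SLC10A2, the other ileal gene with a probe, was at 8.55 on control piglet 7 and 8.81 on amoxicillin piglet 8 at weaning. On the rest of the 6 arrays it was higher, at 13.58, 13.45, 11.96 and 10.31. The part of these markers in the results was not tested.

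SLC5A1 changed with age in the control arm, with its highest levels at 4 wk postweaning, and this was the 1 call among 40 tests of both members. At day 1 the 6 control piglets ranged from 12.74 to 14.07 with a median of 13.23, and at day 7 they ranged from 12.10 to 14.41 with a median of 14.08. At weaning the 3 control piglets measured 13.25, 13.92 and 14.18. At 4 d postweaning the 5 piglets measured 14.04, 14.21, 14.30, 14.35 and 15.05. The highest levels came at 4 wk postweaning, where all 3 control piglets, at 15.04, 15.34 and 15.41, lay above every control piglet of the first 3 ages and overlapped with the highest piglet of 4 d postweaning. How many of all genes separate in this way is not given here. Group means went from 13.22 ± 0.49 (SD, n = 6) at day 1 through 13.83 ± 0.87 (n = 6), 13.78 ± 0.48 (n = 3) and 14.39 ± 0.39 (n = 5) to 15.26 ± 0.19 (n = 3).

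The limma F-test over the 5 ages in the control arm gave an adjusted p of 0.0134 for SLC5A1, and 30.5% of the 12771 genes tested were called by the same test. Leaving out any single array kept this adjusted p between 0.00554 and 0.0494. The call was lost with the slide as a random block (adjusted p = 0.184), with the slide as a fixed block (adjusted p = 0.892), and when arrays were scaled at their 75th percentile and not by quantiles (adjusted p = 0.0642 from the scanner's processed signal and 0.0708 from background-corrected signal). Without the 16 arrays with FABP6 above 12 it was lost too (adjusted p = 0.114), while without the 6 arrays above 15 it was kept (adjusted p = 0.0217), as it was without the 2 arrays of high B and plasma cell markers (adjusted p = 0.00861). The ages of this arm lay on 3 slides in their order, with the 3 arrays of weaning on 1 slide and those of 4 wk postweaning on another.

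**Figure D1:**
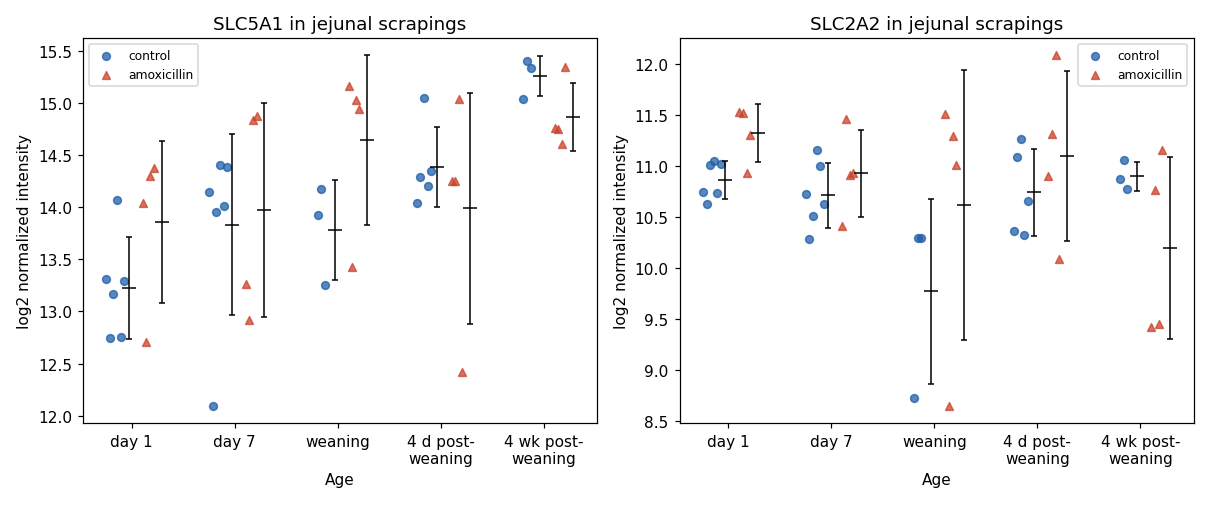
Log2 normalized intensity of SLC5A1 (left) and SLC2A2 (right) in each piglet at the 5 ages, control piglets as circles and amoxicillin piglets as triangles, with black bars for the group mean and SD. Control SLC5A1 lay between 15.04 and 15.41 at 4 wk postweaning, and the 2 lowest SLC2A2 values, 8.65 and 8.72, came from weaning.

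In the amoxicillin arm SLC5A1 was not called over age. Arrays of this arm also correlated less within a group over all gene spots, with r between 0.862 and 0.961 against 0.928 to 0.986 in the control arm. They had 16150 to 26290 spots well above background. Control arrays had 25560 to 29827, apart from piglet 34 at 4 wk postweaning, which had 15937. That array also held the highest SLC5A1 level of all, 15.41. At day 1 the amoxicillin piglets measured 12.71, 14.04, 14.30 and 14.38. At day 7 they measured 12.92, 13.27, 14.84 and 14.87, a low pair and a high pair. At weaning 3 piglets lay together at 14.95, 15.03 and 15.17 and piglet 8 was lower at 13.43. At 4 d postweaning the piglets spread from 12.42 through 14.25 and 14.26 to 15.04. At 4 wk postweaning they lay closer, at 14.61, 14.76, 14.77 and 15.35. The group means were 13.86 ± 0.78, 13.98 ± 1.03, 14.64 ± 0.82, 13.99 ± 1.11 and 14.87 ± 0.32 (SD, n = 4 each). The limma F-test over age in this arm gave an adjusted p of 0.234, where 47% of all genes were called.

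Between single ages, SLC5A1 passed no test in either arm. In the control arm the step from day 1 to day 7 was 0.61 (SE 0.40, adjusted p = 0.631 by limma) and that from day 7 to weaning was -0.05 (SE 0.49, adjusted p = 0.989). These steps were called for 1.43% and 0.125% of all genes. From weaning to 4 d postweaning control SLC5A1 differed by 0.61 (SE 0.51, adjusted p = 0.529, background 2.53%). From 4 d to 4 wk postweaning it differed by 0.87 (SE 0.51), a step at which limma called 0% of all genes after adjustment and 789 at an unadjusted p under 0.05. Over the whole span from weaning to 4 wk postweaning the difference was 1.48, with a 95% interval from 0.33 to 2.63 and an adjusted p of 0.0943, where 8.58% of all genes were called. The groups of 3 did not overlap over this span. The share of all genes with such a separation is not given here, so that nothing is read from it. The average of the 5 probes was capped at 4 wk postweaning, where 3 probes were saturated on 3, 2 and 1 of the 3 control arrays, so that the difference is not an exact size. With the slide as a fixed block it was 1.04 (adjusted p = 0.759). This value rests on control piglet 10, the 1 array of 4 d postweaning on the slide of the weaning arrays.

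The same steps in the amoxicillin arm were 0.12 from day 1 to day 7, 0.67 from day 7 to weaning, -0.65 from weaning to 4 d postweaning and 0.88 from there to 4 wk postweaning, each with an SE of 0.49. The adjusted p values by limma were between 0.239 and 0.978, beside backgrounds of 0.736%, 11.3%, 6.37% and 12.7% of genes called. From weaning to 4 wk postweaning SLC5A1 differed by 0.23 (95% interval -0.77 to 1.22, adjusted p = 0.775), while 26.5% of all genes were called, and the sign of this difference turned with scaling to a common 75th percentile. The step from weaning to 4 wk postweaning was smaller in the amoxicillin arm by 1.25, with an interval from -2.78 to 0.27 for the difference of the steps (adjusted p = 0.367, background 6.16%). With the slide as a fixed block this direction turned to 1.28, the amoxicillin span then being 2.33. That span rests on amoxicillin piglet 34, the 1 array of 4 d postweaning on the slide of the 4 wk arrays. For the step to 4 d postweaning the arms differed by -1.26 (interval -2.69 to 0.17, adjusted p = 0.539, background 0.102%). Both intervals were wide and included 0.

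The 5 SLC5A1 probes carried the same gene with unequal room to rise. Probe A_72_P444300 was saturated on 24 of 43 arrays, A_72_P629869 on 10 and A_72_P176146 on 2, while A_72_P577813 and A_72_P488671 were never saturated. On the probe A_72_P444300 every array of the control arm at both postweaning ages and every amoxicillin array at 4 wk postweaning was saturated, so that its levels there are a ceiling. The probes correlated with each other over the 43 arrays with r between 0.701 and 0.900, a description in which the arrays share slides and ages. From weaning to 4 wk postweaning in the control arm, A_72_P444300 differed by 0.27 (SE 0.40), A_72_P629869 by 1.02 (SE 0.58) and A_72_P176146 by 1.52 (SE 0.73). The probes without saturation differed by more, A_72_P577813 by 1.80 (SE 0.69) and A_72_P488671 by 2.80 (SE 0.72).

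Probe A_72_P488671 went from between 10.61 and 10.95 in the 3 control piglets at weaning to between 12.75 and 14.48 at 4 wk postweaning. Probe A_72_P577813 went from between 12.30 and 13.87 to between 15.05 and 15.16. With SLC5A1 taken from these 2 probes alone, an alternative chosen after the data were seen, the control difference from weaning to 4 wk postweaning was 2.30 (SE 0.66) and passed the test by limma with an adjusted p of 0.0254. In the amoxicillin arm both probes differed in sign over the same span, with 0.75 (SE 0.60) for A_72_P577813 and -0.48 (SE 0.62) for A_72_P488671. Fitted among 18152 single probes, A_72_P488671 passed for this span in the control arm (adjusted p = 0.0187 by limma, background 6.26%) and for its difference between the arms (-3.28, SE 0.95, adjusted p = 0.0335, background 5.86%). The difference between the arms was -1.05 (SE 0.91, adjusted p = 0.581) for A_72_P577813 and -2.16 (adjusted p = 0.138) for both probes together. Over the 5 ages 3 of the 5 probes were called in the control arm (background 27.5%), and A_72_P577813 alone was called in the amoxicillin arm (adjusted p = 0.0441, background 46.2%).

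**Figure D2:**
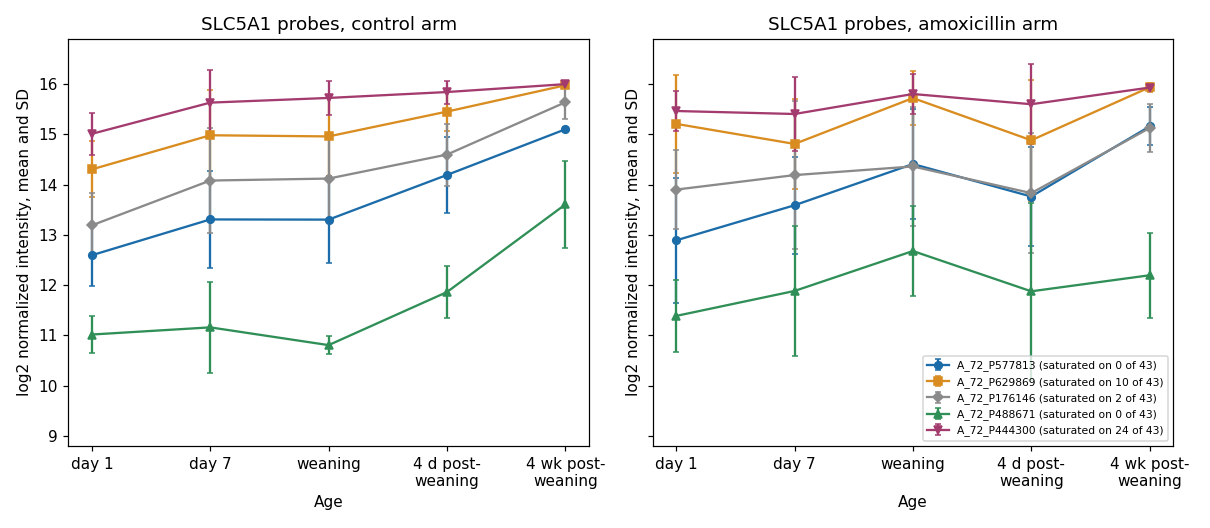
Mean log2 normalized intensity with SD of each of the 5 SLC5A1 probes by age in the control arm (left) and the amoxicillin arm (right), with the number of saturated arrays of each probe in the key. The brightest probe, A_72_P444300, ended at 16.00 in the control arm, where every array was saturated, while A_72_P488671 ran from 10.81 at weaning to 13.61 at 4 wk postweaning.

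SLC2A2 ran differently: its level in the control arm was lowest at weaning and otherwise close to that at birth, without a call at any step. At day 1 the 6 control piglets ranged from 10.62 to 11.05 with a median of 10.88, and at day 7 from 10.28 to 11.15 with a median of 10.67. At weaning the 3 piglets measured 8.72, 10.29 and 10.29. At 4 d postweaning the 5 piglets measured 10.33, 10.36, 10.66, 11.09 and 11.27. At 4 wk postweaning the 3 piglets were close together at 10.77, 10.87 and 11.05. The weaning values of piglets 24 and 25 were within the range of day 7, and that of piglet 7 was far below it. All 3 were below every control piglet of day 1 and of both postweaning ages. The share of all genes with such a separation is not given here. The means were 10.86 ± 0.18 (SD, n = 6), 10.71 ± 0.32 (n = 6), 9.77 ± 0.90 (n = 3), 10.74 ± 0.43 (n = 5) and 10.90 ± 0.14 (n = 3), and the limma F-test over age gave an adjusted p of 0.267. When the arrays of the control arm were fitted alone, this adjusted p was 0.024.

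In the amoxicillin arm SLC2A2 was highest at day 1, with 10.93, 11.30, 11.52 and 11.53. At day 7 the piglets measured 10.41, 10.91, 10.92 and 11.46. At weaning they measured 11.004, 11.29 and 11.50, with piglet 8 at 8.65, the lowest level of the 43 arrays. At 4 d postweaning they measured 10.09, 10.90, 11.31 and 12.08, the last being the highest level of the 43. At 4 wk postweaning piglets 37 and 39 were low, at 9.42 and 9.45, and piglets 38 and 40 were at 10.76 and 11.15. The means were 11.32 ± 0.28, 10.93 ± 0.43, 10.61 ± 1.32, 11.09 ± 0.83 and 10.19 ± 0.89 (SD, n = 4 each), with an adjusted p of 0.178 by the limma F-test over age.

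The control step of SLC2A2 into weaning was -0.94 (95% interval -1.84 to -0.05, adjusted p = 0.480 by limma), and that from weaning to 4 d postweaning was 0.97 (interval 0.05 to 1.89, adjusted p = 0.223). Over the span from weaning to 4 wk postweaning it was 1.13 (interval 0.10 to 2.16, adjusted p = 0.163). Without control piglet 7 at weaning these 3 differences became -0.42, 0.45 and 0.61. In the amoxicillin arm SLC2A2 differed by 0.48 (interval -0.41 to 1.37) from weaning to 4 d postweaning, by -0.90 (interval -1.79 to -0.01, adjusted p = 0.171) from there to 4 wk postweaning and by -0.42 (interval -1.31 to 0.48) over both. The weaning to 4 wk step differed between the arms by -1.54 (interval -2.91 to -0.18, unadjusted p = 0.0275, adjusted p = 0.181 by limma). With the slide as a fixed block this difference turned to 0.28 and the amoxicillin span to 0.93, neither of them called. Under this block the amoxicillin span rests on piglet 34 and the control span on piglet 10. Each is the 1 array of 4 d postweaning on its slide.

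The 2 lowest SLC2A2 levels belonged to the 2 arrays with high B and plasma cell markers, and several SLC2A2 results turned on them. Without amoxicillin piglet 8 at weaning, SLC2A2 passed the test for 4 wk postweaning minus weaning in the amoxicillin arm (-1.07, adjusted p = 0.0373 by limma) and for the difference of this step between the arms (-2.20, adjusted p = 0.0134). Without both arrays the same values were -1.07 (adjusted p = 0.0225) and -1.68 (adjusted p = 0.0645), so that the second call was not made. With both left out the limma F-test over age in the amoxicillin arm gave SLC2A2 an adjusted p of 0.0274, and in the control arm 0.717. In the fit of all arrays the F-test over age in the amoxicillin arm called 47% of all genes. The step from weaning to 4 wk postweaning in that arm called 26.5%, and its difference between the arms 6.16%. The shares without these arrays are not given here, so that nothing is read from these SLC2A2 calls. The other 4 arrays with FABP6 above 15 had SLC2A2 at 10.36, 10.87, 10.90 and 11.15. Amoxicillin piglets 37 and 39 at 4 wk postweaning, low in SLC2A2, had B and plasma cell sums of 9.69 and 9.98. Why these arrays differ was not tested.

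**Figure D3:**
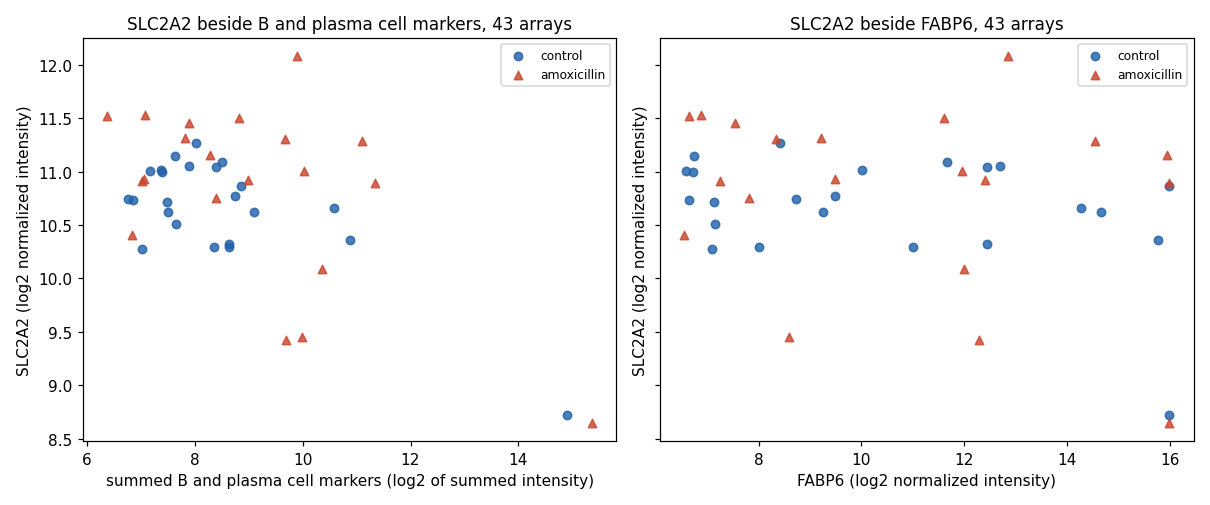
SLC2A2 log2 normalized intensity on each of the 43 arrays against the summed level of B and plasma cell markers (left) and the level of FABP6 (right), control as circles and amoxicillin as triangles. The arrays at 8.65 and 8.72 had sums of 15.37 and 14.90, and 4 arrays with FABP6 as high lay at 10.36 to 11.15.

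Maternal amoxicillin was set against control at each age, with a call needing an adjusted p under 0.05 and a log2 difference beyond 1.5. For SLC5A1 amoxicillin minus control was 0.63 at day 1 (95% interval -0.28 to 1.54), 0.14 at day 7 (-0.77 to 1.05) and 0.86 at weaning (-0.22 to 1.94). After weaning it was -0.40 at 4 d (-1.34 to 0.55) and -0.39 at 4 wk (-1.47 to 0.68). For SLC2A2 it was 0.46 at day 1 (-0.36 to 1.27), 0.21 at day 7 (-0.60 to 1.03), 0.84 at weaning (-0.12 to 1.81), 0.36 at 4 d postweaning (-0.49 to 1.20) and -0.70 at 4 wk postweaning (-1.66 to 0.26). None of these 10 differences was called, the lowest adjusted p by limma being 0.299 for SLC2A2 at weaning, and the piglets of the arms overlapped at each age for both genes. Among all genes 0.211% were called at day 1, 3.41% at weaning, 1.54% at 4 d postweaning and 2.13% at 4 wk postweaning. At day 7 limma called 0%, with 887 genes at an unadjusted p under 0.05.

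At weaning 1 array in each arm moved the SLC2A2 difference between the arms, in opposite ways. Without amoxicillin piglet 8 the difference was just under the fold limit of 1.5, with an adjusted p of 0.0158 by limma. Without control piglet 7 it was 0.32 (adjusted p = 0.751), and without both it was 0.975 (adjusted p = 0.158). The limma F-test of treatment by age gave adjusted p values of 0.601 for SLC5A1 and 0.556 for SLC2A2, where 6.18% of all genes were called. Every pair of neighbours in the order of the 10 group means overlapped for both genes, from control 4 wk postweaning at the top to control day 1 at the bottom for SLC5A1, and from amoxicillin day 1 to control weaning for SLC2A2. Neighbours were picked by sorting these same means, so that their overlap is no evidence on whether ages or arms differ.

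**Figure D4:**
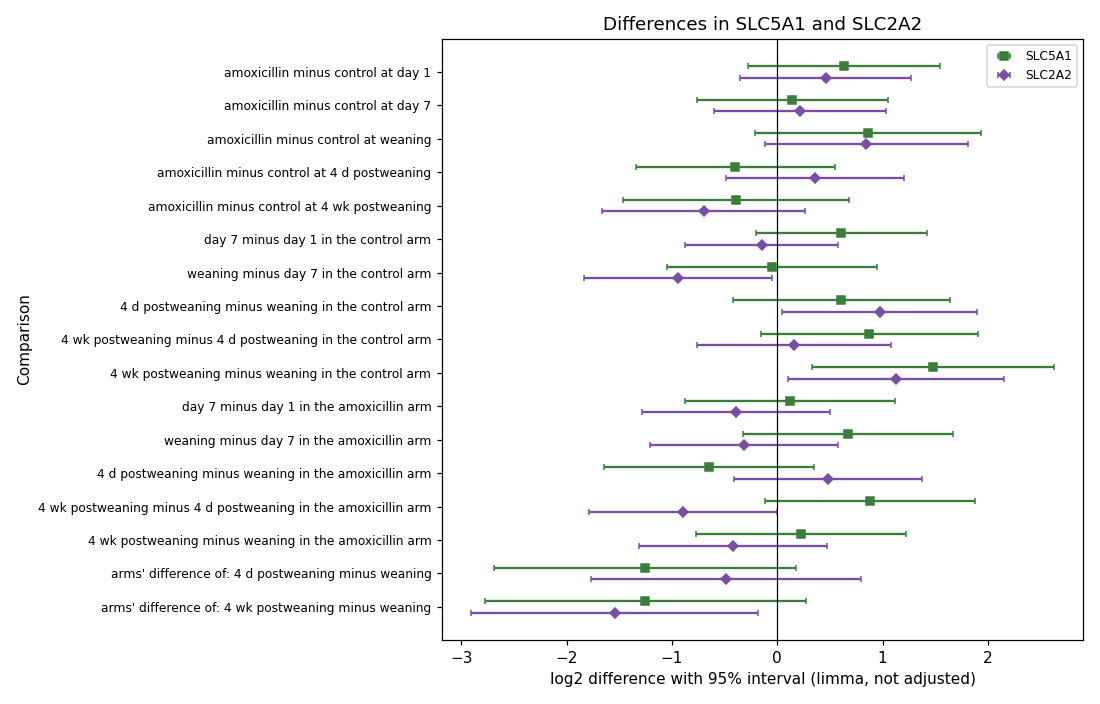
Log2 differences in SLC5A1 (squares) and SLC2A2 (diamonds) for each comparison of arms, of ages within an arm and of steps between arms, with 95% intervals from limma that are not adjusted for the number of genes. The interval for SLC5A1 from weaning to 4 wk postweaning in the control arm ran from 0.33 to 2.63.

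The transporters moved together only in part. Over the 43 arrays SLC5A1 and SLC2A2 correlated with r = 0.230 (Spearman 0.334), and their deviations from the group means with r = 0.497 (Spearman 0.468), a description of arrays that share slides and ages. Of 1889 named genes, those most like SLC5A1 over the arrays were GSTO1, a glutathione transferase (r = 0.823), PPARGC1A, a coactivator of mitochondrial genes (0.802), INPP1, an inositol phosphatase (0.797), SLC9A2, a sodium-proton exchanger (0.727), and CLDN3, a tight junction protein (0.721). Those most like SLC2A2 were CTH, an enzyme of cysteine synthesis (0.728), STARD4, a cholesterol carrier (0.726), CLIC5 (0.687), MTTP, which loads fat onto lipoproteins (0.681), and SLC35A3, a nucleotide sugar transporter (0.656). MTTP had a saturated spot on 39 of 43 arrays, so that its r is limited by the scanner's ceiling. GSTO1 also reached 16.00, the level of saturated SLC5A1 spots, in groups of both arms.

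Other genes of sugar uptake and use were taken from lists of 63 genes, of which 25 had a probe by accession and 22 were tested, none of them a disaccharidase. From weaning to 4 d postweaning 1 of the 22 was called in the control arm and 2 in the amoxicillin arm, beside 2.53% and 6.37% of all genes. From weaning to 4 wk postweaning 2 and 3 of the 22 were called, beside 8.58% and 26.5%. The median of the list from weaning to 4 wk postweaning was -0.32 in the control arm and 0.01 in the amoxicillin arm, beside -0.09 and -0.22 over all genes. Over the 5 ages 7 of the 22 were called in the control arm and 6 in the amoxicillin arm, beside 30.5% and 47% of all genes, and nothing is read from counts this close to or under the background.

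The beta subunit of the sodium pump, ATP1B1, rose after weaning in both arms. Its control level was 12.93 ± 0.33 (SD, n = 3) at weaning, 14.48 ± 0.35 (n = 5) at 4 d and 14.74 ± 0.22 (n = 3) at 4 wk postweaning. No control piglet at weaning overlapped with a later one, and the share of all genes that separate in this way is not given here. The amoxicillin means were 12.88 ± 0.16, 14.09 ± 0.35 and 14.18 ± 0.80 (n = 4 each). The log2 differences from weaning were 1.55 at 4 d and 1.82 at 4 wk in the control arm (adjusted p = 0.00421 and 0.00122 by limma) and 1.21 and 1.30 in the amoxicillin arm (adjusted p = 0.00634 and 0.000583). With the slide as a random block the adjusted p values of ATP1B1 were between 0.00606 and 0.0232.

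TAS1R3, a subunit of the sweet taste receptor that senses luminal sugar, fell by 1.79 from weaning to 4 d postweaning and fell by 2.11 to 4 wk postweaning in the amoxicillin arm (adjusted p = 0.0164 and 0.000912 by limma). In the control arm its differences were -1.39 and -1.59 (adjusted p = 0.0929 and 0.0533), and without the 2 arrays of high B and plasma cell markers they were -1.63 and -1.84 (adjusted p = 0.0643 and 0.0442), the second passing the test. PRKAA2, a catalytic subunit of the energy sensor AMPK, fell by 0.92 from weaning to 4 wk postweaning in the amoxicillin arm (adjusted p = 0.0349, or 0.0558 with the slide as a random block). PCK2, the mitochondrial form of a gluconeogenic enzyme, fell by 2.33 over that span in the control arm (adjusted p = 0.0141) and differed by -0.02 in the amoxicillin arm. Without the 2 arrays of high B and plasma cell markers these PCK2 values were -2.91 and -0.59, and the control step to 4 d postweaning went from -1.70 (adjusted p = 0.0677) to -2.28 (adjusted p = 0.00869). The span of PCK2 differed between the arms by 2.31 with an adjusted p of 0.0719, which missed the threshold. At 4 wk postweaning PCK2 was higher by 2.05 in amoxicillin than in control piglets (adjusted p = 0.0261 by limma), the 1 gene of the 22 called between the arms. Of all genes 2.13% were called between the arms at this age, and 0% to 3.41% at the other ages. Nothing is read from this count.

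The transcription factors HNF4A and GATA6, known to act on intestinal genes, were not called from weaning to either postweaning age, with differences from -0.47 for HNF4A to 0.37 for GATA6, both in the control arm. The other SLC5 family members with a tested probe were not called at these steps either. For SLC5A4 the difference from weaning to 4 wk postweaning was 1.90 (SE 1.11) in the control arm, and for SLC5A10 it was -1.56 (SE 0.55, adjusted p = 0.0658 by limma).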

How the data were processed

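The authors labelled jejunal RNA with cyanine 3 and extracted the scans with Feature Extraction 10.7.3.1. The deposited files hold the linear intensity of each of 45122 spots, and a deposited table holds log2 values made by the authors with normexp (offset 1) and quantile normalization. R 3.0.2 is named in the submitters' processing notes. The same steps on the median intensity, with limma 3.58.1 in R 4.3.3, matched that table within 5.0e-09. Outlier-flagged spots were left out, which leaves SLC5A1 with 4 probes on 2 arrays, and probes of an accession were averaged. The spots left out were at 12.68 for amoxicillin piglet 21 at day 1 and 14.20 for amoxicillin piglet 7 at weaning. Both are below the SLC5A1 levels of these arrays, 14.38 and 15.17, which are therefore higher than an average of all 5 probes.

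Accessions above 1.1 times the highest dark spot (6.98 in log2) on every array of a group were tested, 12771 in all. Gene symbols came from a RefSeq table of Sscrofa11.1. The 43 arrays were fitted with lmFit and eBayes as 10 groups, with Benjamini-Hochberg adjustment over all genes, and calls needed an adjusted p under 0.05 (between arms also a log2 difference beyond 1.5). All list genes called from weaning to a postweaning age and the 5 genes most like each member were named. Some list genes that were tested are not reported here by name. The fit was tested on simulated data. Precision is limited by how many arrays each group has. The members and lists were chosen with earlier results of these data known. No column was left unmapped.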

Additional observations from a re-analysis of the deposited data

Results flagged for a closer look

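Among the 16 sets of 4 or more piglets screened, 8 for each gene, 2 held a value far from the others, and chance marks about 1 in 20 sets. SLC5A1 in control piglet 19 at day 7 was 12.1, and its gap to the next piglet was 0.805 of the whole range of the group. Without this array the control step from day 1 to day 7 was 0.96 in place of 0.61. SLC5A1 in amoxicillin piglet 8 at weaning was 13.43, with a gap of 0.874 of the range, and this is the array with the lowest summed enterocyte markers and the highest summed B and plasma cell markers. The part of these markers in its level was not tested.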

How the results depend on the processing

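Of the 638 values recomputed under settings other than leaving out 1 array, 599 kept their direction and their side of the threshold, 23 turned in sign, 11 gained a call and 5 lost one. The cause was not tested for any of them. The SLC5A1 F-test over age in the control arm (adjusted p = 0.0134 as reported) gave 0.0642 with the processed signal, 0.0708 with normexp at a common 75th percentile, 0.184 with the slide as a random block, 0.892 when slide was a fixed block, and 0.114 without the 16 arrays with FABP6 above 12. With SLC5A1 from the 2 probes never saturated, 4 wk postweaning minus weaning in the control arm was 2.30 and called. The SLC2A2 F-test in the control arm fell to 0.024 when the arrays of that arm were fitted alone. Scaling at the 75th percentile turned the SLC5A1 step from day 7 to weaning in the control arm to 0.0704 (processed signal) and 0.0524 (normexp), and the SLC5A1 span from weaning to 4 wk postweaning in the amoxicillin arm to -0.11 and -0.31.

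With the slide as a fixed block, SLC5A1 became -0.10 for day 7 minus day 1 in the control arm, -0.18 for it in the amoxicillin arm, -0.23 for weaning minus day 7 in the amoxicillin arm, 2.45 and called (adjusted p = 0.0404) for 4 wk minus 4 d postweaning there, which rests on piglet 34 as the 1 earlier array of its slide, and 1.28 for the difference between arms of the weaning to 4 wk span. SLC2A2 became 0.11 for 4 wk minus 4 d postweaning and 0.93 for 4 wk postweaning minus weaning in the amoxicillin arm, and 0.23 and 0.28 for the differences between arms of the steps to 4 d and 4 wk. The amoxicillin values of 0.11 and 0.93 rest on piglet 34 too. In the control arm the spans from weaning under this block rest on piglet 10, the 1 array of 4 d postweaning on the slide of weaning.

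Sets of arrays were left out by FABP6 and by B and plasma cell markers after the data were seen. FABP6 above 12 was tried first, and the level of 15 and the B and plasma cell sum were added once its values were known. FABP6 above 12 leaves 1 array in the smallest group, which is assumed to vary like the other groups. Without the arrays with FABP6 above 12, SLC5A1 was -0.16 for amoxicillin minus control at day 7, -0.18 for day 7 minus day 1 and -0.38 for 4 wk postweaning minus weaning in the amoxicillin arm. SLC2A2 was then -0.41 for 4 wk minus 4 d postweaning in the control arm, 0.33 for weaning minus day 7 and -1.15 (called) for 4 wk postweaning minus weaning in the amoxicillin arm, with an F-test over age of 0.0336. Without the 6 arrays above 15, SLC5A1 over the latter span was -0.34, and SLC2A2 in the amoxicillin arm was 0.34 into weaning, -0.10 from weaning to 4 d postweaning, -1.28 (called) from there to 4 wk, -1.39 (called) over both, -2.01 (called) for the difference between arms of that span, and 0.00516 in the F-test. Without the 2 arrays of high B and plasma cell sums these values were -0.18 for SLC5A1, and 0.34, -0.17, -1.07 (called) and 0.0274 for SLC2A2. The shares of all genes called with these sets left out are not given here, so that nothing is read from these calls.

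Without 1 array at a time, SLC5A1 ranged from -0.20 to 0.50 for amoxicillin minus control at day 7, from -0.75 to 0.13 at 4 d postweaning (above 0 without amoxicillin piglet 34), from -0.40 to 0.22 for weaning minus day 7 in the control arm, from -0.26 to 0.47 for day 7 minus day 1 and from -0.18 to 0.40 for 4 wk postweaning minus weaning in the amoxicillin arm. SLC2A2 in that arm ranged from -0.61 to 0.34 for weaning minus day 7, from -0.17 to 0.82 for 4 d postweaning minus weaning and from -1.07 to -0.12 for 4 wk postweaning minus weaning. The ends at 0.34, -0.17 and -1.07 came without piglet 8 at weaning, and the opposite ends without other arrays. The differences between arms ranged from -1.14 to 0.0347 for the step to 4 d (above 0 without control piglet 7 at weaning) and from -2.20 to -1.02 for that to 4 wk.

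Piglet numbers were not used to pair the samples in the main fit. The deviations of same-numbered piglets across the arms at an age correlated between -0.274 and 0.443 in 10 pairs. Such pairs come from different sows and were not set beside unlike-numbered pairs, so that they cannot show what a number stands for. A replicate block on piglet number changed no call, with an adjusted p of 0.0138 for the SLC5A1 F-test in the control arm. Keeping flagged spots used the highest dark spot with flagged ones as base. Block fits used the 12475 genes without a missing value, and no fixed slide block was possible between the arms.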
